A study of Mus musculus with 6 samples.

Results

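Acute-phase proteins are plasma proteins whose synthesis in the liver changes during infection or injury. The 10 genes described here encode serum amyloid A proteins (Saa1, Saa2, Saa3 and Saa4), lipocalin 2 (Lcn2), haptoglobin (Hp), hemopexin (Hpx), the orosomucoids (Orm1 and Orm2) and C-reactive protein (Crp). They were chosen by name and looked up by Ensembl identifier among the 56305 genes of the RNA-Seq table, which holds all 10. The table covers 3 WT and 3 Vps15LKO livers, each 1 library, from male mice of 5 weeks that were fed ad libitum and collected at ZT6, in the light phase. Vps15LKO mice (AlbCre+;Vps15 f/f) lack functional Vps15, the regulatory subunit of class 3 PI3K, where Cre is driven by the albumin promoter, that is in hepatocytes. Recombination removes exon 2, and the study describes a truncated Vps15 after recombination. The alleles carried by the WT mice of this line are not given in the sources used here. The livers are whole tissue, so that fewer cells of a type and less RNA per cell cannot be told apart. Nothing ties a replicate number to a litter. The p-values of the fits rest on the spread between these mice, drawn toward a trend over genes of similar level.

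In the classical acute-phase response, cytokines of the interleukin 6 family act on hepatocytes through gp130, JAK kinases and STAT3, and interleukin 1 and tumour necrosis factor act through NF-κB, while C/EBP factors bind many of the same promoters. Saa1 and Saa2 are strongly inducible in mouse liver, whereas Crp is only weakly so in this species and Saa4 is largely constitutive. Haptoglobin binds free hemoglobin, hemopexin binds free heme, lipocalin 2 binds the siderophores with which bacteria take up iron, and orosomucoids bind lipids and drugs.

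The sequences before the transcription starts show what these genes share and where near-identical copies begin to differ. RefSeq promoters on GRCm38.p6 were given for 8 members, and the letters searched were those of the 250 bases before each start. A C/EBP motif (TTNNGNAA, either strand) occurred in all 8 of them, against 36.9% of the 32851 promoters in the table. An NF-κB motif (GGNNTTTCC, either strand) occurred only in that of Saa3, against 4.93% of all promoters. A STAT motif (TTCNNNGAA), an interleukin 6 response element (CTGGGAA, either strand) and an E-box (CACGTG) occurred in 0 of the 8, against 7.02%, 9.10% and 6.02% of all. These matches describe letters and not binding. The stretches below run 5′ to 3′ along the gene, up to the first base of a GENCODE exon, with motif matches in capitals. Saa4 and Crp are shown for the members that were lower in Vps15LKO liver, Saa3 for its NF-κB match, which shares letters with a C/EBP match, and Saa1 and Saa2 for the copies that the counting may not separate. For Lcn2, whose window lies partly within exons of other GENCODE transcripts, only 30 bases around the match are shown.
Saa4 (chr7:46732604-46732853, minus strand): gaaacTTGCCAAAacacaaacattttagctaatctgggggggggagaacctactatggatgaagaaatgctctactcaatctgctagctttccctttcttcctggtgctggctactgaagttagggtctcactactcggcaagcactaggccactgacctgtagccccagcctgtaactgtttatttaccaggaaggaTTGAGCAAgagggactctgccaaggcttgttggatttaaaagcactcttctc
Crp (chr1:172697806-172698054, plus strand): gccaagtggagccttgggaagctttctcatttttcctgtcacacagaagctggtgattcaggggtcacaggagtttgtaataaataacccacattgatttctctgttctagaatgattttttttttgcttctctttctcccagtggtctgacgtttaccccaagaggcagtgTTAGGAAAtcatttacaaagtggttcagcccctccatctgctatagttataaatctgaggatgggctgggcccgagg
Saa3 (chr7:46715701-46715926, minus strand): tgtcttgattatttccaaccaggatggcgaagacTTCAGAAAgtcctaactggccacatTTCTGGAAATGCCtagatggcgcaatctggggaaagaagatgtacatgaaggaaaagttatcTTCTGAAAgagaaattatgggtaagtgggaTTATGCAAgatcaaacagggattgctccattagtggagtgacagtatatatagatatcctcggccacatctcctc
Saa1 (chr7:46742981-46743230, minus strand): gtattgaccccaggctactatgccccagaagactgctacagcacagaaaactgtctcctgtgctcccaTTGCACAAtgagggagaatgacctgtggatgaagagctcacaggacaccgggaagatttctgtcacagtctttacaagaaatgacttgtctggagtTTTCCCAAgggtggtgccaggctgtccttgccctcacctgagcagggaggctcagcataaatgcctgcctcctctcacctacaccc
Saa2 (chr7:46751583-46751789, plus strand): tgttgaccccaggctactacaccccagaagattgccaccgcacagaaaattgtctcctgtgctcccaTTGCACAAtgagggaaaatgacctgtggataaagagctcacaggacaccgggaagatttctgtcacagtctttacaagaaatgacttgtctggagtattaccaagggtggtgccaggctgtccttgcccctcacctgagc
Lcn2 (chr2:32387937-32387966, minus strand): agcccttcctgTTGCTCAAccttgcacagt
The Saa1 and Saa2 windows were identical at 238 of 249 aligned bases (95.6%), and both hold the match that begins 182 bases before the start of Saa1 and 183 before that of Saa2. The match of Saa1 that begins 86 bases before its start has no counterpart in Saa2. All 8 windows were read along the gene, since the bases that follow them were found in the GENCODE transcripts of all 8 genes.

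Between 16137093 and 18110223 reads were counted on genes per library. The deposited values are read counts divided by 1 DESeq2 size factor per library, here called normalized counts, and the factors were 0.742 to 0.801 in WT and 1.23 to 1.41 in Vps15LKO livers. As a check of the labels, Pik3r4, which encodes Vps15, stood at 508, 573 and 459.7 in WT livers, against 341, 362 and 355 normalized counts in Vps15LKO livers (log2 fold change −0.54, standard error 0.11, adjusted p = 0.0021, limma with Benjamini-Hochberg adjustment). With equal total reads Pik3r4 stood at 0.19 and was not called, and exon 2 has no value of its own in the table. Albumin transcripts took 9.34% to 9.96% of reads in WT livers and 4.86% to 6.61% in Vps15LKO livers, so that the liver's defining transcript was abundant in all 6 samples. Scaling every library to the same total of reads moved the median log2 fold change of all genes by 0.72, and changed the calls from 5163 higher and 5099 lower to 10299 higher and 1712 lower. Values under this second scaling are therefore given beside each member.

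The acute-phase transcripts did not move as a group. Lcn2 and Orm2 were higher in Vps15LKO liver, Saa3, Saa4, Orm1 and Crp were lower, and Saa1, Saa2, Hp and Hpx did not pass the test. Thus 2 of the 10 members were called higher and 4 lower with adjusted p below 0.05 and a change of 1.2-fold or more (limma on log2(normalized count + 1), Benjamini-Hochberg adjustment), where 33.5% of the 15430 genes tested were called higher and 33.0% lower. The values of the genotypes did not overlap for 7 of the 10, 3 of them higher and 4 lower, against 73.2% of all genes tested. These shares are near those of all genes and are no result about the list. The median log2 fold change was −0.65 over the members and −0.02 over all genes tested, and with equal total reads the medians were 0.07 over the members and 0.70 over all genes.

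**Figure D1:**
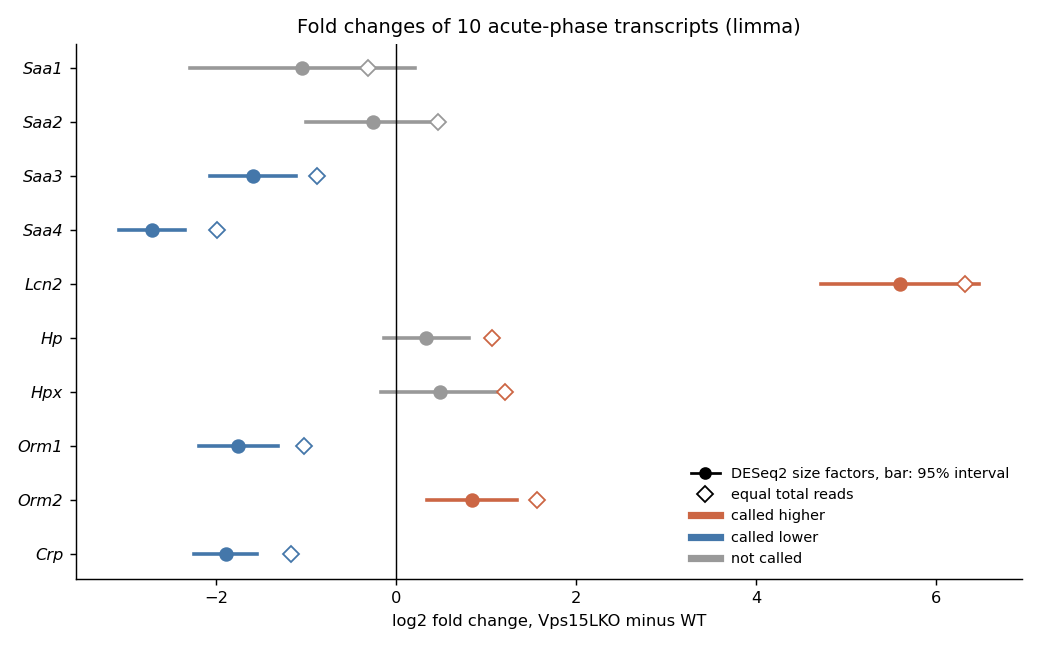
Log2 fold change (Vps15LKO minus WT, horizontal axis) of the 10 acute-phase transcripts, from 3 WT and 3 Vps15LKO livers. Circles with bars give the limma estimate and its 95% interval with the DESeq2 size factors, and open diamonds the estimate with equal total reads. Lcn2 stood at 5.60 and Saa4 at −2.71, and with equal total reads every diamond lay to the right of its circle.

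Among the serum amyloid A genes, which lie together on chromosome 7 of GRCm38, Saa4 fell most. Saa4 encodes the constitutive form carried on high-density lipoprotein, and had 5810.3, 5561 and 6609 normalized counts in WT livers against 869.8, 1160.4 and 745 in Vps15LKO livers. The lowest WT liver thus lay far above the highest Vps15LKO liver, a 6.57-fold difference in the fit (log2 fold change −2.71, standard error 0.16, adjusted p = 3.2e-06, limma with Benjamini-Hochberg adjustment). With equal total reads the log2 fold change of Saa4 was −1.99, and Saa4 was still called.

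Saa3, a form known from macrophages and fat as well as liver, was the least abundant member, with 74.3, 72.4 and 89.0 normalized counts in WT livers and 20.6, 30.0 and 26.2 in Vps15LKO livers. The genotypes did not overlap and Saa3 fell 3.01-fold (log2 fold change −1.59, standard error 0.21, adjusted p = 0.00020, limma with Benjamini-Hochberg adjustment). With equal total reads its log2 fold change was −0.88. Markers of macrophages and monocytes moved the other way: 12 of the 14 that reached 20 normalized counts in a WT liver were called higher and none lower. Trem2 and Gpnmb did not reach 20 there and passed the filter only through the Vps15LKO livers, so that they are left out of this count. The summed normalized counts of the whole list were 8867 to 10800 in WT and 36160 to 40110 in Vps15LKO livers. The 7 fat markers summed to 115 to 185 in WT and 523 to 797 in Vps15LKO livers. Cidec and Plin4, which steatotic hepatocytes also express, were the only ones tested and both were called higher, with means of 55.8 and 59.4 in WT and 438 and 232 in Vps15LKO livers. Lep and Retn had at most 1.35 normalized counts in any liver, and Adipoq reached 17.5 in WT replicate 3 and 3.24 in Vps15LKO livers. The part of these cells in the value of Saa3 was not tested.

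Saa1 and Saa2, the inducible forms, were not called in either direction. Saa1 had 358, 381 and 1813 normalized counts in WT livers and 322, 363 and 240.5 in Vps15LKO livers. WT replicate 3 stood apart, at 4.91 times the mean of the other two WT livers, which lay beside the Vps15LKO livers. The log2 fold change of Saa1 was −1.04 (95% interval −2.29 to 0.21, adjusted p = 0.12, limma with Benjamini-Hochberg adjustment), and it was −0.28 without WT replicate 3 (adjusted p = 0.19) and −0.32 with equal total reads. The edgeR quasi-likelihood test on the recovered reads called Saa1 lower, with an adjusted p of 0.042.

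Saa2 had 163, 161 and 376 normalized counts in WT livers and 173, 233 and 144 in Vps15LKO livers, so that WT replicate 3 was again the highest and the ranges overlapped. Its difference was −0.26 on the log2 scale (standard error 0.33, adjusted p = 0.51, limma with Benjamini-Hochberg adjustment), which became 0.15 without WT replicate 3 and 0.47 with equal total reads, and none of these passed. The coding sequences of Saa1 and Saa2 are identical at 348 of 366 bases (95.1%), and how the counting treated reads that match both is not stated. Summed, the pair had a log2 fold change of −0.81 (adjusted p = 0.17, limma with Benjamini-Hochberg adjustment). Saa3 and Saa4 are further away, with 79.1% and 69.6% of aligned coding bases identical to Saa1.

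The orosomucoids, 3 neighbours on chromosome 4, split. Orm1, by far the most abundant of them, had 11953, 11247 and 12175 normalized counts in WT livers and 3524, 4633 and 2613 in Vps15LKO livers. It fell 3.37-fold with no overlap (log2 fold change −1.75, standard error 0.19, adjusted p = 7.4e-05, limma with Benjamini-Hochberg adjustment), and by 1.03 on the log2 scale with equal total reads.

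Orm2 had 317, 306 and 491 normalized counts in WT livers and 645, 827 and 517 in Vps15LKO livers. The lowest Vps15LKO liver was only just above the highest WT liver, and Orm2 rose 1.79-fold (log2 fold change 0.84, standard error 0.22, adjusted p = 0.0082, limma with Benjamini-Hochberg adjustment). With equal total reads the difference was 1.57 on the log2 scale and was called as well. Orm3, the remaining copy, had 538, 206 and 108 normalized counts in WT livers and 84.8, 186 and 62.9 in Vps15LKO livers, and was not called (adjusted p = 0.095, limma with Benjamini-Hochberg adjustment). Coding bases were 89.9% identical between Orm1 and Orm2, 86.4% between Orm1 and Orm3 and 88.4% between Orm2 and Orm3, and how reads that match several copies were counted is not stated. Summed, the orosomucoids fell by 1.55 on the log2 scale. Orm1 held 93.3% to 95.6% of their reads in WT livers and 81.8% to 82.8% in Vps15LKO livers.

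Crp, a pentraxin that binds phosphocholine on microbes and dying cells, had 7574, 7403 and 7666 normalized counts in WT livers, the narrowest spread of the 10 members in WT. It had 2009, 2542 and 1629.6 in Vps15LKO livers. The 3.72-fold fall (log2 fold change −1.90, standard error 0.15, adjusted p = 1.5e-05, limma with Benjamini-Hochberg adjustment) was 1.17 on the log2 scale with equal total reads and was called there too. The gene model of Crp overlaps a processed pseudogene, Gm38051, on the same strand.

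Lcn2 rose more than any other member. It had 158, 249 and 506 normalized counts in WT livers and 14607, 9359.5 and 16658 in Vps15LKO livers. The genotypes were far apart, at 48.4-fold (log2 fold change 5.60, 95% interval 4.71 to 6.48, adjusted p = 6.9e-06, limma with Benjamini-Hochberg adjustment), and the log2 fold change lay between 5.21 and 6.32 over all alternatives tried, with 6.32 the value for equal total reads. Lipocalin 2 is made by neutrophils as well as hepatocytes, and most neutrophil markers moved with it. Of the 7 that could be tested, 6 were below 20 normalized counts in every WT liver and passed the filter only through the Vps15LKO livers, so that no count of calls is given. Csf3r, the receptor for granulocyte colony-stimulating factor, was above 20 in all livers and rose, with 53.7 to 60.7 normalized counts in WT livers against 248 to 283 in Vps15LKO livers. The 15 listed markers summed to 98.7 to 106.5 normalized counts in WT livers and 646 to 839.5 in Vps15LKO livers. The sum and Lcn2 are levels of different genes, and how much Lcn2 a neutrophil holds was not measured. Ngp and Mpo, granule proteins of developing neutrophils, had 0 reads in all WT livers and 102 to 180.4 and 51.6 to 64.1 normalized counts in Vps15LKO livers, at least 37.0-fold and 14.2-fold higher against a floor of 3 reads in each WT library. Ly6g, a surface marker of mature neutrophils, was at 0 in all WT livers and at 2.29 to 4.95 in Vps15LKO livers. Mmp9 was tested and not called, with 14.8 to 18.7 in WT and 22.1 to 26.9 in Vps15LKO livers. Cxcr2 and Il1r2 had at most 9 and 10 reads in any liver. Markers of cholangiocytes, given below, were higher as well. The part of neutrophils, cholangiocytes and other cells in the rise of Lcn2 was not tested.

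Hp and Hpx, the scavengers of hemoglobin and heme, were the most abundant members and were not called. Hp had 24262, 23838 and 33085 normalized counts in WT livers and 32639, 37255 and 31619 in Vps15LKO livers, and WT replicate 3 lay within the Vps15LKO range. Its log2 fold change was 0.34 (95% interval −0.13 to 0.81, adjusted p = 0.18, limma with Benjamini-Hochberg adjustment). Hpx had 70012, 62125 and 79962 in WT livers and 99579, 103027 and 92872 in Vps15LKO livers. Every Vps15LKO liver was above every WT liver for Hpx, though the test did not pass (log2 fold change 0.48, 95% interval −0.17 to 1.14, adjusted p = 0.17, limma with Benjamini-Hochberg adjustment).

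The calls of this pair depended on the scaling and the test, and that of Hpx on the mean-variance trend of the main fit. With that trend the standard error of Hpx was 0.29. With equal total reads both were called higher, at log2 fold changes of 1.06 for Hp and 1.21 for Hpx, against a median of 0.70 over all genes. Quantile normalization called both as well, at 1.66 for Hp and 1.62 for Hpx, against a median of −0.10 over all genes. Hpx was also called with DESeq2 (adjusted p = 0.00049) and limma voom (adjusted p = 0.035) on the recovered reads and with limma without a mean-variance trend (adjusted p = 0.013), at a log2 fold change of 0.48 in each.

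**Figure D2:**
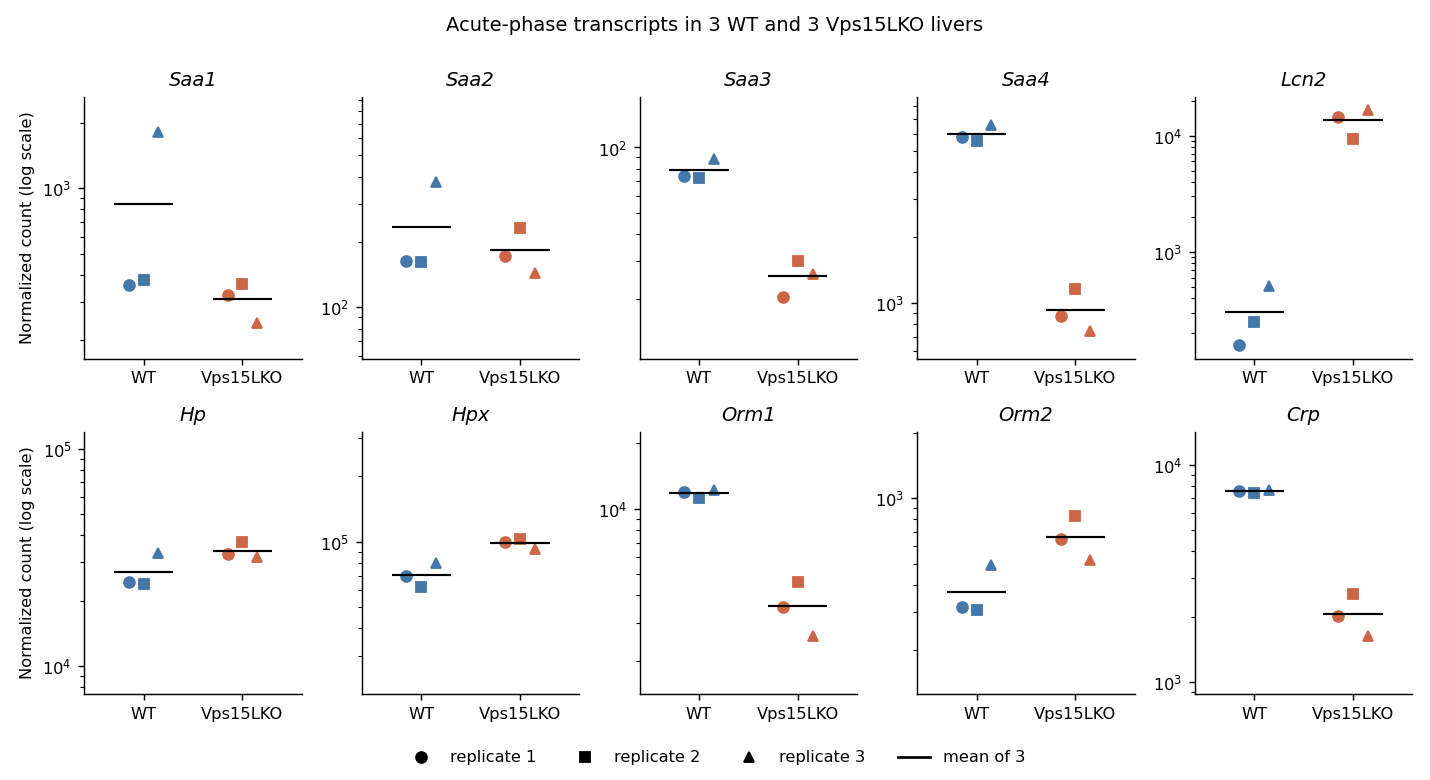
Normalized counts (vertical axis, log scale) of the 10 acute-phase transcripts in each of 3 WT and 3 Vps15LKO livers. The symbols give the replicate and the bar the mean of 3. The triangle of WT replicate 3 is the highest WT point in every panel, and for Saa1 it stands at 1813 while the other 5 livers lie between 240.5 and 381.

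To compare levels between genes, reads were divided by the length of the transcript in kilobases and by the total of reads on genes in the library, as RPKM. On this scale the order in WT liver was Hpx, Hp, Orm1, Crp, Saa4, Saa1, Orm2, Saa2, Lcn2 and Saa3, from 2088 ± 324 for Hpx to 6.27 ± 0.953 for Saa3 (mean ± SD, n = 3). The ranges of neighbours did not overlap from Hpx down to Saa4, and all neighbours from Saa4 to Saa3 overlapped. In Vps15LKO liver the order was Hpx, Hp, Lcn2, Orm1, Crp, Orm2, Saa1, Saa4, Saa2 and Saa3. Lcn2 thus ranked 9 in WT (RPKM 14.9 ± 9.39) and 3 in Vps15LKO liver (1097 ± 369, n = 3 each). Saa4 ranked 5 (127 ± 15.9) and 8 (32.0 ± 5.17). In Vps15LKO liver only Saa1 and Saa4 had overlapping ranges among neighbours. The length used for Saa4 was 2094 bases, that of its only GENCODE transcript, and for Saa1 609 bases.

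The members together took 0.511%, 0.492% and 0.656% of the reads on genes in WT livers and 1.13%, 1.09% and 1.15% in Vps15LKO livers. A share of reads is the scale of equal total reads, on which the median gene lay 0.70 higher in Vps15LKO liver. On that scale the 10 members together were 2.03-fold higher in Vps15LKO liver. Their summed normalized counts, compared after the values were seen, were 120681, 111343 and 142773 in WT livers and 154390, 159429 and 147066 in Vps15LKO livers, 1.23-fold higher. Hp and Hpx made up 77.2% to 79.2% of it in WT and 84.7% to 88.0% in Vps15LKO livers. Without that pair the other 8 members took 0.112%, 0.112% and 0.137% in WT and 0.162%, 0.131% and 0.177% in Vps15LKO livers, and the genotypes overlapped. The direction turned with the size factors, where these 8 summed to 26408, 25380.4 and 29725 normalized counts in WT livers and 22171, 19147 and 22575 in Vps15LKO livers, 1.28-fold lower with no overlap. Lcn2 was 0.131% to 0.354% of the members' reads in WT and 5.87% to 11.3% in Vps15LKO livers.

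**Figure D3:**
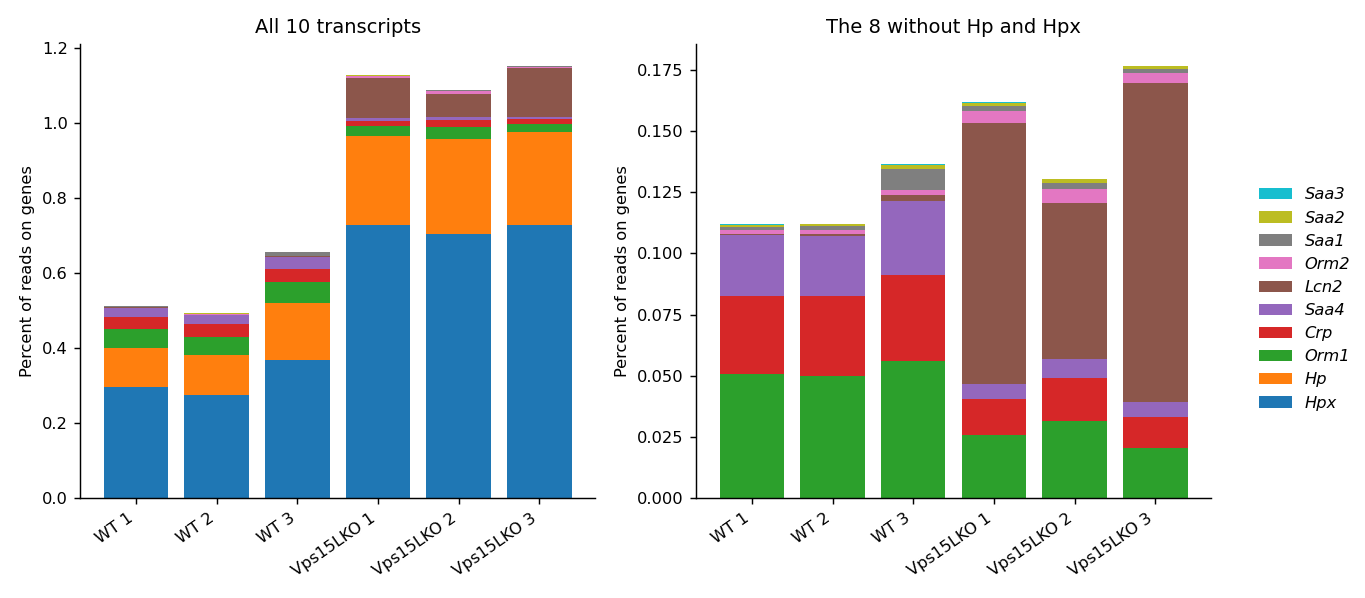
Percent of the reads on genes (vertical axis) taken by each acute-phase transcript in each liver, for all 10 members (left) and for the 8 without Hp and Hpx (right). On the left the Vps15LKO bars reach 1.09% to 1.15% and the WT bars 0.492% to 0.656%. On the right Lcn2 is the largest segment of each Vps15LKO bar, at 48.9% to 73.8% of it, and the Orm1, Crp and Saa4 segments are shorter than in WT. The heights are on the scale of equal total reads, and in normalized counts the 8 members sum to less in Vps15LKO than in WT livers.

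Ratios of members within a liver, unlike these shares, do not depend on the scaling, and 5 were compared, each with an exact two-sided permutation test. Orm1 had 24.8 to 37.7 times the reads of Orm2 in WT livers and 5.05 to 5.60 times in Vps15LKO livers, a 6.06-fold difference of the ratio (p = 0.1 in the exact permutation test). Hp had 65.5 to 154 times the reads of Lcn2 in WT livers and 1.90 to 3.98 times in Vps15LKO livers. Both ratios separated the genotypes widely. Hp had 0.347 to 0.414 times the reads of Hpx in WT and 0.328 to 0.362 times in Vps15LKO livers, and these ranges overlapped (difference of log2 ratio −0.15, p = 0.2 in the exact permutation test). Saa1 had 2.20 to 4.82 times the reads of Saa2 in WT and 1.56 to 1.87 times in Vps15LKO livers. Saa4 had 3.65 to 16.2 times the reads of Saa1 in WT and 2.70 to 3.20 times in Vps15LKO livers, where the lowest WT value was that of replicate 3. For the 4 ratios with no overlap the exact permutation p was 0.1, the smallest possible, and 0.125 after Benjamini-Hochberg adjustment over the 5.

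**Figure D4:**
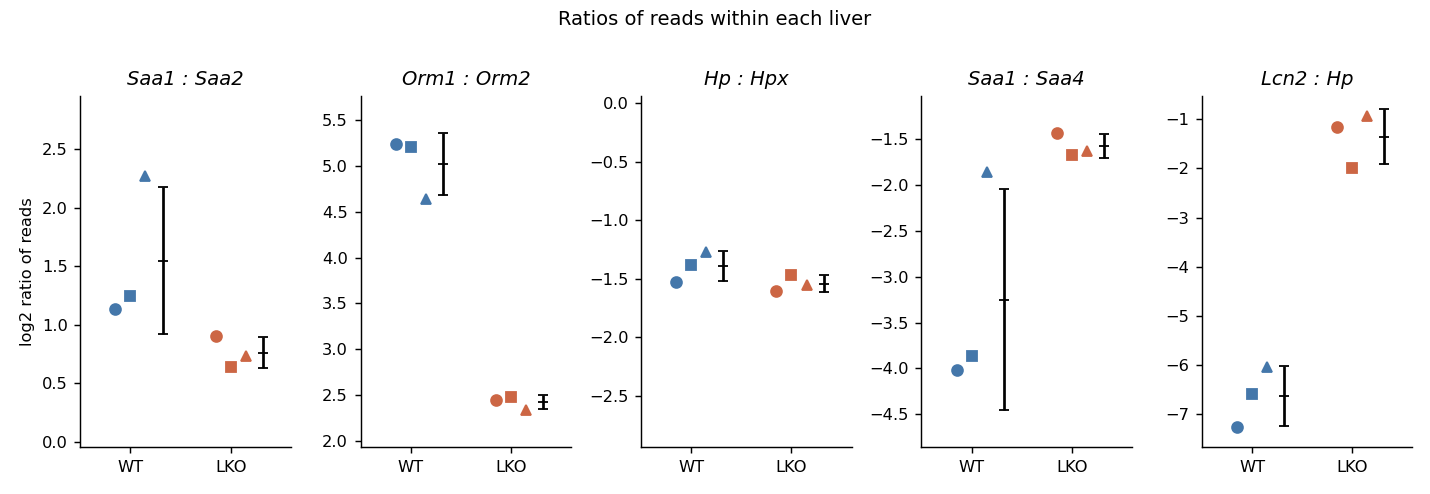
Log2 ratio of reads (vertical axis) between pairs of members within each liver, with the mean ± SD of 3 livers beside the points, circles for replicate 1, squares for 2 and triangles for 3. Orm1 to Orm2 and Lcn2 to Hp separate the genotypes widely, Hp to Hpx overlaps, and for Saa1 to Saa2 and Saa1 to Saa4 WT replicate 3 lies apart from the other WT livers.

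The order of the livers within a genotype was alike for most members. WT replicate 3 was the highest WT liver for all 10, where it was the highest for 32.9% of the genes tested. The excess was uneven, from 1.02 times the mean of the other WT livers for Crp and 1.05 for Orm1 to 2.32 for Saa2, 2.49 for Lcn2 and 4.91 for Saa1. Vps15LKO replicate 2 was the highest of its group for 9 of the 10 members (41.4% of all genes) and replicate 3 the lowest for 8 (41.2% of all genes), while for Lcn2 replicate 3 was the highest and replicate 2 the lowest. In WT replicate 3, Socs3, a feedback inhibitor of interleukin 6 signalling, had 182 normalized counts, beside 484 and 292 in the other WT livers. The metallothionein Mt1, named here after its values were seen, had 1485.5, beside 4945 and 5309. No cause of the position of this liver was tested.

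Upstream of the members, 5 of the 11 listed cytokine genes passed the filter. Lif, Tnf and Clcf1 were below 20 normalized counts in every WT liver and passed only through the Vps15LKO livers, so that no count of calls is given. Lif and Clcf1, ligands of the interleukin 6 family, had 0 to 1.25 and 6.25 to 16.2 normalized counts in WT livers and 77.0 to 92.7 and 251 to 417 in Vps15LKO livers. Lif was thus at least 22.2-fold higher against the floor of 3 reads per WT library, and Clcf1 rose by 4.82 on the log2 scale. Tnf had 6.74 to 17.5 normalized counts in WT livers and 54.3 to 66.4 in Vps15LKO livers (log2 fold change 2.45). Il1b, at 18.9 to 38.5 and 54.5 to 125, rose by 1.56 on the log2 scale. Il6 itself had at most 3 reads in any liver, and Il11, Il17a and Il22 likewise stayed at or below 3 reads. Osm, the ligand of Osmr, had 0 to 1.35 normalized counts in WT livers and 6.11 to 13.4 in Vps15LKO livers, and Ifng had at most 8 reads in any liver. Neither reached the filter, and no test was made. Il1a rose by 0.87.

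Of 24 receptors and signal transducers, 3 were called higher and 8 lower (19 and 3 with equal total reads), and their median log2 fold change was −0.02, or 0.70 with equal total reads, in each case that of all genes. The largest changes were in receptor chains. Il6ra, the ligand-binding chain for interleukin 6, fell 3.02-fold, with 1139 to 1480.2 normalized counts in WT livers and 407 to 453 in Vps15LKO livers. Lifr fell 6.67-fold, with 6068 to 10769 in WT and 878 to 1431 in Vps15LKO livers. Il1rap, the co-receptor for interleukin 1, fell 8.80-fold, with 3997 to 4803 against 332 to 759. In contrast, Osmr, the oncostatin M receptor, rose 5.84-fold, with 79.9 to 92.8 in WT and 426 to 659 in Vps15LKO livers. These 4 kept their calls with equal total reads. Of the other lower calls, those of Nr3c1 and Map3k7 were lost there and those of Il11ra1, Traf6 and Irak1 became higher calls. Il6st, which encodes gp130, Stat3 and Socs3 had log2 fold changes of 0.09, 0.07 and 0.47 and were not called.

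Among 17 listed transcription factors and cofactors of acute-phase promoters, 7 were called higher and 8 lower (9 and 4 with equal total reads). All 6 listed genes of the NF-κB family and its nuclear cofactors rose, led by Relb (log2 fold change 3.01) and Nfkb2 (2.16), with Nfkbiz at 0.98, Nfkb1 at 0.91, Bcl3 at 0.54 and Rela at 0.47. Cebpd rose as well, with 114 to 160.4 normalized counts in WT livers and 264 to 413 in Vps15LKO livers (log2 fold change 1.23). Cebpa, the most abundant C/EBP gene in these livers, fell, with 16720.2 to 17796 in WT and 3521 to 5765 in Vps15LKO livers (log2 fold change −1.94). Cebpb fell by 0.72 on the log2 scale, a change that was 0.01 with equal total reads. Hnf4a (−1.38), Ppara (−1.99) and Nr1h4 (−1.58) fell under both scalings. All of these calls are from limma with Benjamini-Hochberg adjustment.

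**Figure D5:**
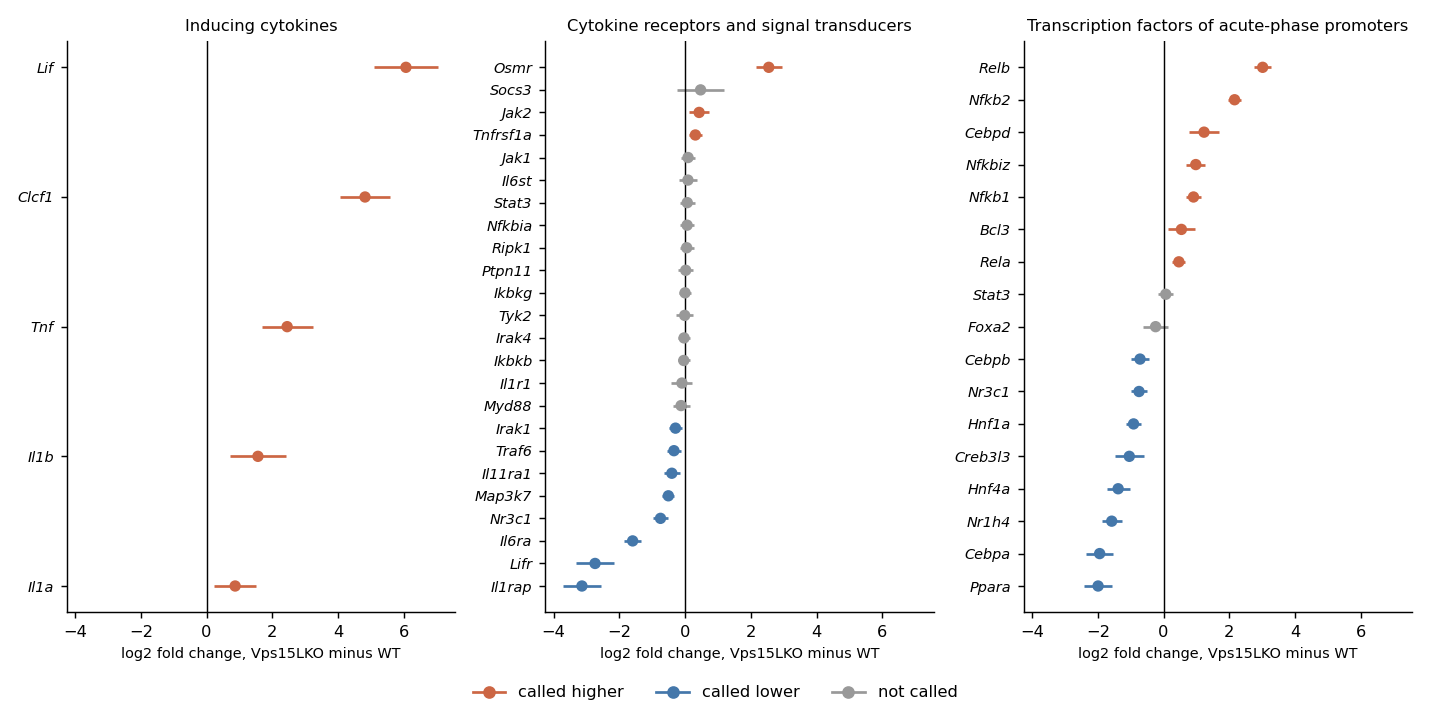
Log2 fold change (Vps15LKO minus WT, horizontal axis) with 95% intervals from limma for the tested cytokines, receptors and signal transducers, and transcription factors of the acute-phase response. Of the cytokines, Lif, Tnf and Clcf1 could be tested only because they were high in Vps15LKO livers. Il6ra, Lifr and Il1rap lie furthest left among the receptors, and NF-κB genes and Cebpd lie right of Stat3 with Cebpa and the hepatocyte factors left of it.

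Other genes of the acute phase were also divided. Of 22 further positive acute-phase genes, 5 were called higher and 11 lower (11 and 7 with equal total reads), where A2m passed the filter only through the Vps15LKO livers, with a median log2 fold change of −0.47 that was 0.26 with equal total reads and 0.30 after quantile normalization. The fibrinogen chains all fell, with log2 fold changes of −1.91 for Fga, −1.71 for Fgb and −2.06 for Fgg. Cd14, the co-receptor for bacterial lipopolysaccharide, rose, with 46.4 to 66.2 normalized counts in WT livers and 1322 to 1984 in Vps15LKO livers. Il1rn, the interleukin 1 receptor antagonist, rose with 43.8 to 62.5 in WT and 791 to 898 in Vps15LKO livers. Serpina3n fell by 0.63, a change that was 0.10 with equal total reads. Of 11 negative acute-phase genes, whose transcripts decline in the classical response, 6 were called lower and 1 higher under both scalings. Apoa2 fell by 2.56 and Ttr by 1.98 on the log2 scale. Alb, at −1.48, was not called (standard error 1.38, adjusted p = 0.37, limma with Benjamini-Hochberg adjustment). Its values still separated the genotypes: the lowest WT liver stood at 2030859 and the highest Vps15LKO liver at 968935. Trf and Ahsg were also not called and lower with no overlap, while Serpina6 overlapped. With equal total reads the log2 fold changes were −0.76 for Alb, 0.08 for Trf and 0.12 for Ahsg.

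Genes that receive or clear the proteins were divided too, and Fpr1 and Slc40a1 were not called. Cd163, the macrophage receptor for haptoglobin bound to hemoglobin, fell 8.20-fold, with 232 to 265 normalized counts in WT livers and 25.5 to 35.7 in Vps15LKO livers, while most of the macrophage markers rose. Lrp1, the receptor for hemopexin bound to heme, fell by 0.81 on the log2 scale, a change that was −0.09 and not called with equal total reads. Hmox1, which degrades heme, rose, with 511 to 636 in WT and 1521 to 1856 in Vps15LKO livers, and Slc22a17, a receptor for lipocalin 2, had 13.3 to 18.9 and 39.7 to 63.7. Lrp2 (megalin), another receptor for lipocalin 2, had 10.6 to 21.2 in WT and 2.83 to 4.58 in Vps15LKO livers and was too low to be tested. Of the 18 genes of this group that were tested, Slc22a17 and Ager passed the filter only through the Vps15LKO livers. Of the other 16, 8 were called higher and 6 lower, where 33.5% of all genes tested were called higher and 33.0% lower. With equal total reads the calls over all 18 changed from 10 higher and 6 lower to 13 and 3.

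Markers of hepatocytes moved against those of most other cell types in the same livers. Of 14 hepatocyte markers 12 were called lower and none higher, with summed normalized counts of 3273000 to 3667000 in WT and 987800 to 1483000 in Vps15LKO livers, and 12 were called lower with equal total reads too. All 12 tested stellate cell and fibroblast markers, and all 8 cholangiocyte markers that reached 20 normalized counts in a WT liver, were called higher. Cftr, Cldn7 and Ggt1 passed the filter only through the Vps15LKO livers. The cholangiocyte markers summed to 1334 to 1510 in WT and 12890 to 24550 in Vps15LKO livers, in the latter most of it Spp1 (osteopontin), with 493 to 599 and 10402 to 20496. Without Spp1 they summed to 841 to 911 and 2488 to 4055. The stellate cell and fibroblast markers summed to 8079 to 8526 and 34340 to 40530. Of the 4 lymphocyte markers that reached 20 in a WT liver, 2 were called higher and none lower. Of 10 endothelial markers 4 were called higher and 5 lower, or 6 and 0 with equal total reads. Of 6 erythroid markers 1 was called higher, Slc4a1, which passed the filter only through the Vps15LKO livers, and 1 lower, or 5 and 1 with equal total reads. The part of these differences in the values of the members was not tested.

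For Saa1, Lcn2 and Hp, the genes nearest over the 6 livers were found by the root mean square difference of log2(normalized count + 1) from the WT mean, among 11239 genes that averaged 100 or more normalized counts. Nearest to Saa1 were Onecut1, Rarres1 and Gm20649 (differences of 0.26, 0.27 and 0.31). All 3 share the high value in WT replicate 3. Rarres1 had 507, 486 and 1798 normalized counts in WT and 502.5, 489 and 385 in Vps15LKO livers. Nearest to Lcn2 were Gm15512, Ahnak2 and Cd63 (0.37, 0.40 and 0.42). All 3 were below 100 in every WT liver and reached that average only through the Vps15LKO livers. Cd63, a tetraspanin of late endosomes, had 49.1, 40.0 and 66.1 normalized counts in WT and 2269, 2081 and 2616 in Vps15LKO livers. Nearest to Hp were Irgq, Mlst8 and 5730409E04Rik (0.04, 0.06 and 0.07).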

How the data were processed

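Livers of 3 WT and 3 Vps15LKO mice were compared. Polyadenylated RNA was sequenced from libraries that mark strand. The authors used SOAPnuke to filter reads, HISAT2 to map them to GRCm38, featureCounts to count them and DESeq2 to scale the counts, and deposited the resulting normalized signal per gene. Versions of these tools, and how the counting used strand and reads with several matches, are not given in the sources used here. All values were whole multiples of 1 step per library (tolerance 0.001), so reads were recovered. The spread between mice includes counting error.

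Symbols came from GENCODE M21 (55141 of 56305 genes matched). The filter kept genes that reached 20 normalized counts in 3 or more of the 6 livers, in all 15430. They were tested on log2(normalized count + 1), a scale that understates changes of low genes, using limma 3.58.1 (R 4.3.3) with a trend, and p-values were adjusted by Benjamini-Hochberg over all of them. The procedure was tested on simulated data. Count tests on the recovered reads were alternatives (edgeR 4.0.16, DESeq2 1.42.0, limma voom), beside other pseudocounts, filters, scalings and thresholds, replicate blocks, summed copies and each replicate left out. Named genes were all members, their paralogues, the cytokine, receptor and transcription factor lists, up to 4 genes of the largest change in each other list, and a few more fixed by name. The members and lists were chosen with earlier results of these data known.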

Additional observations from a re-analysis of the deposited data

How the results depend on the processing

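The calls of Saa3, Saa4, Lcn2, Orm1 and Crp held under every alternative tried, and no leave-one-out fit changed the number of members called. Members called higher were 2, and 4 with equal total reads or quantile normalization, which added Hp and Hpx, and 1 at a fold of at least 2, which removed Orm2. Hpx made it 3 with limma without a trend, DESeq2 and limma voom, and Saa1 raised the lower calls from 4 to 5 with edgeR. Genes called in all were 10262, and 5185 at a fold of at least 2. The log2 fold change of Saa2 changed sign with equal total reads (0.47) and ranged from −0.46 to 0.15 with 1 liver left out. In an alternative chosen after seeing the data, the log2 ratio of the summed level of the 8 members without Hp and Hpx, 0.38 as a percent of reads, became −0.35 in normalized counts, and that of all 10 moved from 1.02 to 0.30. The log2 fold change of Orm2 became −1.55 with the orosomucoid copies summed. Replicate numbers did not pair the livers: deviations of livers with the same number correlated at −0.01, −0.01 and 0.05, and a replicate block gave 2 members called higher, 4 lower and 10048 genes in all. With 3 livers a genotype, exact tests of single values cannot go below p = 0.1.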
